A study of Mustela putorius furo and Mus musculus with 4 samples.

Results

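Intermediate filaments are ropelike polymers that form the cytoskeleton of animal cells together with actin filaments and microtubules. In astrocytes they are built mainly from glial fibrillary acidic protein (GFAP) and vimentin, with nestin and synemin as partners that need vimentin to enter a filament, and GFAP is the most widely used astrocyte marker. A related family, the lamins, forms a meshwork under the nuclear membrane, and plectin is a giant linker protein that ties filaments to each other, to actin, to microtubules and to cell adhesions. The 10 genes described here are the filament genes Gfap, Vim, Nes, Synm, Des and Nefl, the lamin genes Lmna, Lmnb1 and Lmnb2, and the linker gene Plec. They were chosen by symbol, and 9 of the 10 had a value in both species, out of 13373 gene symbols shared between the ferret and mouse files. Synm had mouse values only, and ferret Synm was not analysed here.

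The cultures were primary astrocytes from the cerebral cortex of ferrets at postnatal day 1 (2 libraries) and of ICR mice at postnatal day 1 to 3 (2 libraries). In the preparation the study describes, glia from 1 ferret pup filled 4 flasks, while the cortices of 4 mouse pups were pooled in 1 flask. Mixed glia grew in serum for 14 days, were shaken to remove loosely attached cells and replated, and serum was then withdrawn on day 3 for a defined medium with heparin-binding EGF-like growth factor until RNA harvest on day 7. Whether the duplicates came from separate cultures is not stated, so the error given here is the spread between libraries, which may be technical.

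Levels are in FPKM, the fragments of a gene relative to its exon length and to all mapped fragments, which the authors computed for each species on its own genome annotation. A species difference is therefore a difference between cultures, species and gene models together, which cannot be told apart in this design. FPKM does not give the depth of a library, and the commonest ratio among low genes, a depth of 1.17 times for ferret library 1 relative to 2 and of 0.835 times for the mouse pair, was shared by only 25.2% and 15.4% of them. Differences are on the log2(FPKM + 1) scale, ferret minus mouse, from limma over 10204 genes with a mean of at least 1 FPKM in at least one species. To be called higher or lower, a gene needed an adjusted p (Benjamini-Hochberg, over all tested genes) under 0.05 together with a log2 difference beyond 1 in size. Over the tested genes the median difference was -0.35 in the deposited FPKM. It moved to -0.01 when libraries were scaled to equal sums and to 0.05 by quantile normalization. Here and below, library sums and quantiles were taken over the shared symbols only. These sums were 227391 and 236543 FPKM in ferret, against 300465 and 308121 FPKM in mouse. Over all genes of each species they were 238385 and 247918 FPKM in ferret, against 525962 and 535899 FPKM in mouse. Scaling to the sums over all genes was not tried.

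The filament and lamin genes share a common ancestor, so their transcripts were checked for shared sequence. The longest stretch without a mismatch between any 2 of the 10 genes, taking 1 mouse transcript of each from GENCODE, was 30 bases, between Lmna and Lmnb2. It is much shorter than a sequenced read, and reads that cross its ends differ between the genes. The same check was not made for the ferret.

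Gfap and Vim were the most abundant filament transcripts in both species, but their order was opposite. Ferret astrocytes held more Gfap than Vim, and mouse astrocytes held more Vim than Gfap. Gfap had 1481 and 1522 FPKM in ferret, against 1429 and 1546 FPKM in mouse. Both ferret values lay inside the range of the mouse values, and the log2 difference was 0.01 (95% interval -0.14 to 0.17, adjusted p = 0.841 by limma). Vim had 1187 and 1273 FPKM in ferret, against 4142 and 4381 FPKM in mouse. Both mouse libraries were far above both ferret libraries, with a limma log2 difference of -1.79 (standard error 0.073) and an adjusted p of 6.78e-09, or 3.47 times more Vim in mouse by the mean FPKM. By mean FPKM among the shared symbols, Vim ranked at position 1 in mouse and at position 6 in ferret astrocytes, and Gfap ranked at position 8 in mouse and at position 3 in ferret astrocytes.

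The comparison of Gfap depended on how the species were scaled. With libraries scaled to the mean of the library sums, Gfap was higher in ferret by a limma log2 difference of 0.41 with an adjusted p of 4.78e-05, and after quantile normalization by 0.81 (adjusted p = 4.70e-08 by limma). Vim stayed lower in ferret under both scalings, at -1.40 and -0.96, and the last value is under the limit for a call. The ratio of Vim to Gfap within a library does not depend on the scaling of that library. Vim stood at 0.801 and 0.836 times Gfap in ferret and at 2.90 and 2.83 times Gfap in mouse libraries. The log2 ratio was -0.29 ± 0.044 (SD, n = 2) in ferret, compared with 1.52 ± 0.023 (SD, n = 2) in mouse, a 3.50-fold difference in the balance of the 2 transcripts, with no overlap of the libraries. An exact permutation test of 2 against 2 libraries gave p = 0.333, two-sided, which is the smallest it can give, for this ratio and for the others below.

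**Figure D1:**
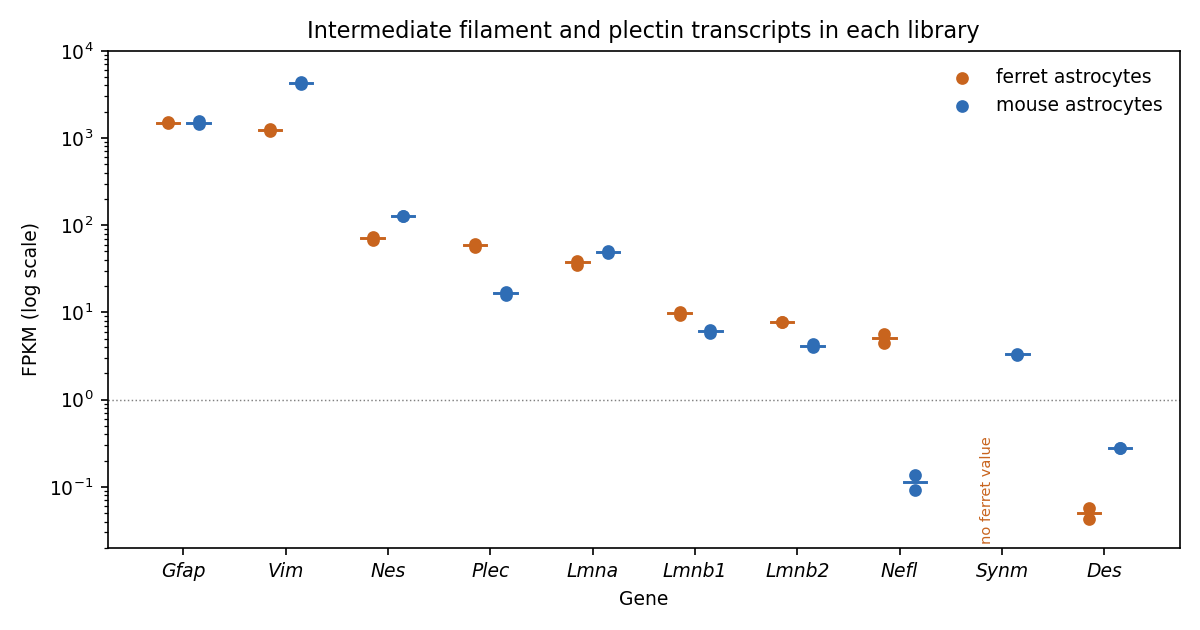
FPKM of the 10 genes in each library (points, log scale) with the species mean (bar), ferret in orange and mouse in blue. The dotted line marks 1 FPKM. Vim and Gfap stand above all other members in both species, Plec and Nefl are higher in ferret, Vim and Nes are higher in mouse, and Synm has no ferret value.

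Nes and Synm encode the partners that join vimentin filaments. Nestin marks neural stem cells and immature or reactive astrocytes. Nes had 67.8 and 73.9 FPKM in ferret, against 126.9 and 125.9 FPKM in mouse. Both mouse libraries were higher, by a limma log2 difference of -0.83 (standard error 0.062) with an adjusted p of 6.22e-07, which passes the adjusted p but not the limit of 1. With libraries scaled to their mean sum the difference was -0.44. Relative to Vim the order turned round. Nes stood at 0.057 and 0.058 times Vim in ferret and at 0.031 and 0.029 times Vim in mouse libraries, so that ferret astrocytes held 1.94 times more Nes per Vim. Synm, a large filament protein that also binds components of cell adhesions, had 3.25 and 3.36 FPKM in the mouse libraries, just below Lmnb2 there.

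Des, the main filament protein of muscle, was near the bottom of the range in both species. It had 0.043 and 0.057 FPKM in ferret, against 0.281 and 0.282 FPKM in mouse. Des was under 1 FPKM in both species and was not part of the main comparison. The fit on all shared symbols gave a limma log2 difference of -0.29 with an adjusted p of 3.63e-04. At values so far under 1 FPKM, the log2(FPKM + 1) scale understates the difference. Mural and smooth muscle cells are usual sites of desmin. Of 6 markers of these cells tested, 4 were called lower and 1, Kcnj8, higher in ferret, beside 30.1% and 13.1% of all tested genes. Kcnj8 had a mean of at least 1 FPKM in ferret alone, so its direction was built into its entry. The 8 markers with values in both species summed to 198 and 174 FPKM in ferret, against 1191 and 1234 in mouse, with Rgs5 listed at 0 in both ferret libraries. Their part in the level of Des was not tested. In such bulk samples, fewer cells of a type and less RNA per cell cannot be told apart.

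Nefl encodes the light chain of neurofilaments, the intermediate filaments of axons. It had 4.42 and 5.68 FPKM in ferret, against 0.137 and 0.092 FPKM in mouse. The libraries did not overlap, and limma put the log2 difference at 2.43 (standard error 0.104) with an adjusted p of 9.81e-09. Nefl entered the test only through its ferret level, so a difference was built into its entry. On this scale the change of so low a gene is understated, and with a pseudocount of 0.1 the log2 difference was 4.58. The neurofilament partners were scarce as well. Nefh, the heavy chain, had 0.404 and 0.444 FPKM in ferret and 0.054 and 0.019 in mouse. Ina, which encodes alpha-internexin, had 0.310 and 0.307 FPKM in ferret and 0.103 and 0.104 in mouse. For Nefm, the medium chain, only mouse values were analysed here, of 0.892 and 0.853 FPKM. Neuronal markers are given beside Nefl. The 8 markers with values in both species summed to 53.0 and 51.6 FPKM in ferret and to 52.8 and 55.9 FPKM in mouse. Of the 5 tested, Syt1 and Dcx were called higher in ferret, beside 13.1% of all tested genes. At the adjusted p alone 4 were higher and 1 lower, beside 32.4% and 56.2% of all tested genes. Dcx and Elavl3, 2 of the 4, entered through ferret alone, so their direction was built into their entry. The part of neurons in the level of Nefl was not tested.

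As shares of the summed FPKM of Gfap, Vim, Nes, Nefl and Des, the composition differed between the species by far more than between duplicates. Gfap made up 54.1% and 52.9% of this sum in ferret and 25.1% and 25.5% in mouse libraries. Vim made up 43.8 ± 0.690% (SD, n = 2) in ferret, compared with 72.5 ± 0.221% (SD, n = 2) in mouse. Nes made up 2.52 ± 0.067% (SD, n = 2) in ferret, compared with 2.15 ± 0.105% (SD, n = 2) in mouse, so its share was slightly higher in ferret although its FPKM was lower. Nefl and Des together stayed under 1% in every library. The sum itself was 2807 ± 95.5 FPKM (SD, n = 2) in ferret, compared with 5876 ± 251 FPKM (SD, n = 2) in mouse, or 1.21% and 1.93% of the FPKM of all shared symbols. Most of the gap between these sums lies in Vim.

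**Figure D2:**
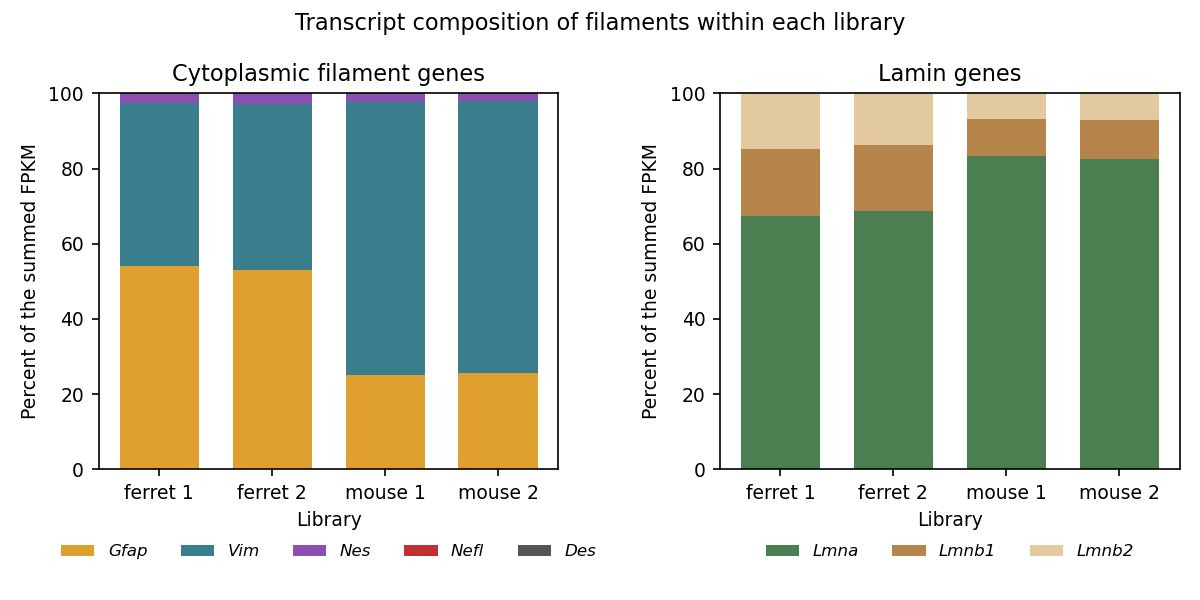
Percent of the summed FPKM taken by each cytoplasmic filament gene (left) and by each lamin gene (right) in each of the 4 libraries. Gfap takes 52.9% to 54.1% in ferret and 25.1% to 25.5% in mouse libraries, and Lmna takes a larger part of the lamin sum in mouse.

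Lamins form the nuclear lamina. A-type lamins, all from Lmna, are typically more abundant in stiff tissues, and the B-type lamins from Lmnb1 and Lmnb2 stay attached to the nuclear membrane through a lipid anchor. Lmna had 35.4 and 39.4 FPKM in ferret, against 48.3 and 50.1 FPKM in mouse. The log2 difference was -0.39 with a limma standard error of 0.067 and an adjusted p of 3.47e-04, close to the median of all genes. With libraries scaled to the mean of the library sums it was -0.01 (adjusted p = 0.906 by limma), and it was -0.03 after quantile normalization. Lmna therefore passed the adjusted p only in the deposited scaling among the 4 tried.

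The B-type lamins lay on the other side. Lmnb1 had 9.40 and 10.1 FPKM in ferret, against 5.74 and 6.36 FPKM in mouse, a limma log2 difference of 0.61 (standard error 0.078) with an adjusted p of 3.75e-05. Lmnb2 had 7.78 and 7.79 FPKM in ferret, against 3.99 and 4.30 FPKM in mouse, a limma log2 difference of 0.77 (standard error 0.074) with an adjusted p of 4.09e-06. Every ferret library was above every mouse library for both genes. Neither passed the limit of 1 as deposited, while Lmnb2 passed it with libraries scaled to the mean of the library sums (1.11) and both passed it after quantile normalization (1.02 for Lmnb1 and 1.21 for Lmnb2).

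Within a library, Lmna stood at 2.06 and 2.197 times the sum of Lmnb1 and Lmnb2 in ferret and at 4.97 and 4.70 times that sum in mouse. The A-type to B-type ratio was thus 2.27 times lower in ferret, and the libraries did not overlap. Lmna made up 68.0 ± 0.992% (SD, n = 2) of the lamin FPKM in ferret and 82.8 ± 0.556% (SD, n = 2) in mouse. The ratio of Lmnb1 to Lmnb2 differed less, at 1.21 and 1.30 in ferret and 1.44 and 1.48 in mouse. Lmnb1 is often used as a marker of dividing and non-senescent cells, so markers of proliferation were read beside it. Of 7 tested, 0 were called higher and 1, Cdk1, was called lower in ferret by limma, beside 13.1% and 30.1% of all tested genes. At the adjusted p alone 3 were higher and 3 lower, beside 32.4% and 56.2% of all tested genes. Ccna2 was called higher with library sums set to 1000000 (log2 difference 1.08) and after quantile normalization (1.05). The summed level of the 7 markers was 47.6 and 53.2 FPKM in ferret and 71.2 and 66.3 FPKM in mouse, where Cdk1 alone had 27.9 and 25.6 FPKM against 5.95 and 5.88 in ferret. Their part in the lamin levels was not tested.

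Plec encodes plectin, which crosslinks vimentin and GFAP filaments and anchors them at adhesions, mitochondria and the nucleus. It had 56.4 and 61.5 FPKM in ferret, against 17.14 and 15.96 FPKM in mouse. Ferret astrocytes thus held 3.56 times more by the mean FPKM, with a limma log2 difference of 1.77 (standard error 0.068) and an adjusted p of 4.68e-09. The difference was 2.15 with libraries scaled to the mean of the library sums and 2.11 after quantile normalization. Plec and Vim moved in opposite directions, so that Plec stood at 0.048 times Vim in both ferret libraries, against 0.0041 and 0.0036 times Vim in the mouse libraries, a 12.3-fold difference. Plec lay at a level between Nes and Lmna in ferret and between Lmna and Lmnb1 in mouse, and in neither species did its libraries overlap those of a neighbour in this order. The mouse locus (GRCm38 chr15:76170974-76232574, minus strand) has 46 exonic regions, 18113 exonic bases and 21 coding transcripts in GENCODE, more than any other member. Gene models of such a locus can differ in length between annotations, and the length used for the ferret gene was not used here.

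**Figure D3:**
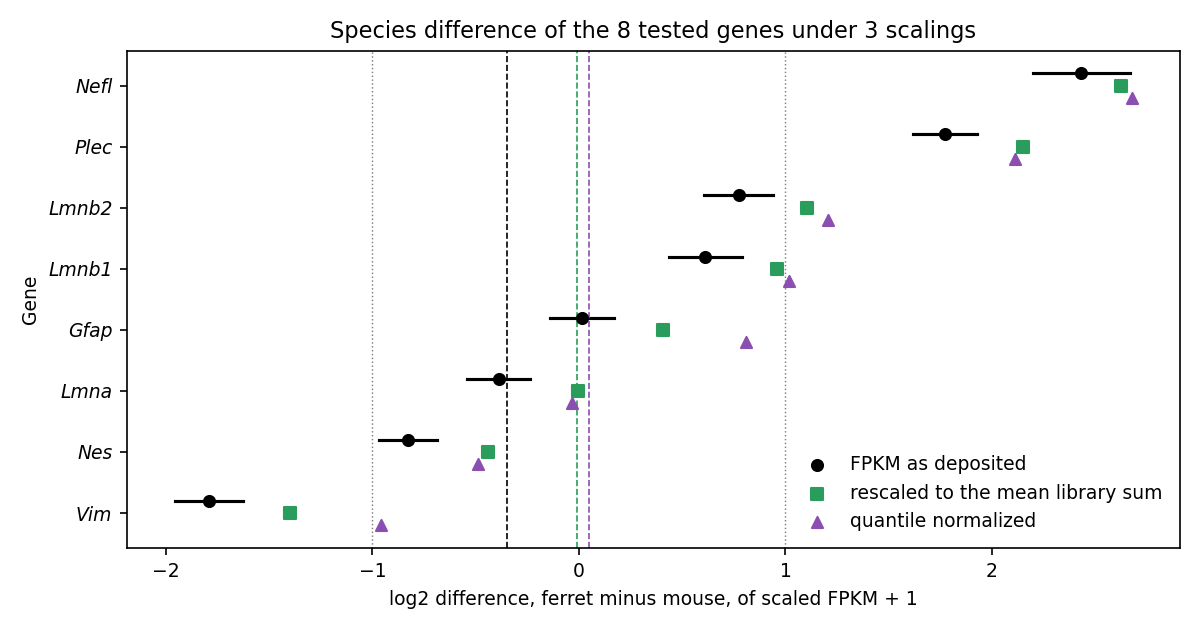
Log2 difference (ferret minus mouse) of the 8 tested genes, with FPKM as deposited (black circles, 95% interval from limma), with libraries rescaled to the mean library sum (green squares) and after quantile normalization (purple triangles). Dashed lines mark the median of all 10204 genes under each scaling and dotted lines the limits of -1 and 1. Plec and Nefl lie above 1 under all 3 scalings, and Lmna lies close to the median under each scaling.

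Of the 8 members tested, Plec and Nefl were called higher in ferret astrocytes and Vim was called lower, beside 13.1% of all tested genes called higher and 30.1% called lower. Together these 3 calls compare with 43.2% of all tested genes called either way. At the adjusted p alone, 4 of the 8 were higher (32.4% of all tested genes) and 3 lower (56.2%), or 7 of 8 against 88.6% either way, so a difference at this level is common in these data. The FPKM of the species did not overlap for 7 of the 8, 4 higher and 3 lower in ferret, and for 94.1% of all tested genes, 35.1% higher and 59.0% lower. The median log2 difference of the 8 was 0.31, against -0.35 over all genes tested. Plec lay above 94.8% of all tested genes in its difference and Nefl, whose direction was built into its entry, above 97.6%, whereas Vim lay above 13.2% of them and Lmna above 48.8%. The genes nearest to Gfap in level over the 4 libraries, by Euclidean distance of log2(FPKM + 1), were Aldoc (distance 0.91), Tpt1 (1.02) and Cfl1 (1.18). Those nearest to Vim were S100a6 (1.42), Tpt1 (2.24) and Sparc (2.79), and the distances from Vim were the larger ones.

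Other filament genes of a list of 20 were mostly low. Values in both species were found for 12 of them, and 4 passed the filter of 1 FPKM. Sync encodes syncoilin, a filament protein first known from muscle. It had 19.8 and 18.2 FPKM in ferret and 6.14 and 6.23 FPKM in mouse, a limma log2 difference of 1.48 with an adjusted p of 2.20e-08, and it was the only one of the 4 called higher. Iffo1, which has a filament-type rod and sits in the nucleus, had 2.49 and 2.76 FPKM in ferret and 17.9 and 15.9 in mouse, and was called lower (log2 difference -2.30). Krt19, a keratin of simple epithelia that passed the filter through its mouse level alone, had 0.028 and 0 FPKM in ferret and 5.71 and 5.78 FPKM in mouse, and was called lower as well (log2 difference -2.73). Krt10, a keratin of the upper epidermis, had 4.69 and 4.67 FPKM in ferret and 6.87 and 5.93 in mouse, a log2 difference of -0.38 that turned to 0.01 after quantile normalization. Of the genes with mouse values only, Iffo2 had 5.11 and 5.21 FPKM, and Krt8 and Krt18, the keratin pair of simple epithelia, stayed at or under 0.033 FPKM.

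Plec was higher in ferret, while both other plakin genes tested were lower. Macf1, which links actin and microtubules, had 33.8 and 32.8 FPKM in ferret and 92.8 and 87.7 FPKM in mouse, and was called lower (log2 difference -1.41, adjusted p = 8.93e-09 by limma). Dst, which encodes the dystonin isoforms that join filaments to microtubules and adhesions, had 22.1 FPKM in both ferret libraries and 42.4 and 39.9 FPKM in mouse, a log2 difference of -0.86 that is under the limit for a call. Both stayed lower in ferret under every scaling tried, the smallest differences being -1.03 for Macf1 and -0.48 for Dst. The desmosomal and epithelial plakins Dsp, Evpl and Ppl were under 1 FPKM in all 4 libraries.

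Enzymes and chaperones that act on filaments differed widely. Padi2 encodes the main brain peptidylarginine deiminase, which converts arginine to citrulline and is known to modify GFAP and vimentin. It had 951 and 969 FPKM in ferret and 11.3 and 11.5 FPKM in mouse, a limma log2 difference of 6.27 (standard error 0.055) with an adjusted p of 2.38e-12, so that its level in ferret astrocytes stood between those of Vim and Nes. Hspb8, a small heat shock protein that works with Bag3 in the disposal of misfolded proteins, went the other way, with 24.1 and 25.2 FPKM in ferret and 773 and 817 FPKM in mouse (log2 difference -4.96, adjusted p = 6.86e-12 by limma). Cryab, which encodes alpha-B-crystallin, a chaperone that binds GFAP and vimentin filaments, was abundant in both species at 987 and 1042 FPKM in ferret and 728 and 756 FPKM in mouse. Its log2 difference was 0.45 and stayed under 1 in every scaling tried. Hspb1, another small heat shock protein, was called lower in ferret, at 158 ± 8.38 FPKM (SD, n = 2) against 454 ± 22.6 (SD, n = 2) in mouse. In this list of 15 genes 2 were called higher and 6 lower in ferret, beside 13.1% and 30.1% of all tested genes, and the 6 included the kinases Rock2, Pak1, Cdk1 and Cdk5, which phosphorylate filament proteins. Its median log2 difference was -0.29, against -0.35 over all genes.

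At the nuclear membrane, 4 of 11 tested partners of the lamina were called lower in ferret and 0 were called higher by limma. At the adjusted p alone 2 were higher and 8 lower, beside 32.4% and 56.2% of all tested genes. Over all tested genes 30.1% were called lower and 13.1% higher, so the share called lower among these partners is near that of all genes. The 4 were Tor1aip1, which encodes the lamina-associated protein LAP1, Tmem43, Syne2 and Sun2. Syne2, and Syne3 among the 8 lower at the adjusted p, entered through mouse alone, so their direction was built into their entry. Sun2 and Syne2 encode parts of the LINC complex that couples the lamina to the cytoskeleton. Tor1aip1 had 7.50 and 7.35 FPKM in ferret and 26.8 and 27.2 in mouse, and Sun2 had 6.53 ± 0.115 (SD, n = 2) in ferret, compared with 21.6 ± 1.05 (SD, n = 2) in mouse. Emd, which encodes the lamin-binding protein emerin, had 48.7 and 53.4 FPKM in ferret and 40.2 and 41.6 in mouse, a log2 difference of 0.31. The 4 genes stayed called under every scaling tried. With library sums set to 1000000 or quantile normalized, 1 gene of the list, Lemd3, was called higher as well.

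Prelamin A is made from Lmna RNA and is farnesylated, trimmed and cut before it joins the lamina. Of 6 genes of this route and its partners tested, 4 were called lower in ferret and 1 higher, beside 30.1% and 13.1% of all tested genes. Zmpste24, the protease that releases mature lamin A, had 16.6 and 14.7 FPKM in ferret and 44.1 and 42.5 in mouse, a limma log2 difference of -1.41 with an adjusted p of 3.00e-08. Fnta, a farnesyltransferase subunit, had 33.1 and 31.4 FPKM in ferret and 82.4 and 85.3 in mouse, and Ppp1cc, a phosphatase subunit that acts at the nuclear envelope, had 20.0 and 17.7 FPKM in ferret and 53.0 and 57.4 in mouse. Narf, which encodes a protein that binds prelamin A, was the gene called higher, at 6.25 and 8.13 FPKM in ferret and 2.82 and 2.73 in mouse. Under each of the other scalings 2 of the 6, Zmpste24 and Ppp1cc, were called lower rather than 4. Of all 10204 tested genes, 2536 were called lower with library sums set to 1000000. By the mean of the library sums 2215 were called lower, and after quantile normalization 2090.

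Of 13 genes for anchors of plectin and filaments at adhesions, 2 were called higher and 4 lower in ferret, shares near the 13.1% and 30.1% of all tested genes. Itgb4, the integrin subunit that binds plectin in hemidesmosomes, was higher with a ferret mean of 4.28 ± 0.292 FPKM (SD, n = 2) and a mouse mean of 1.20 ± 0.088 (SD, n = 2), while its partner Itga6 had 39.2 ± 1.83 (SD, n = 2) and 30.02 ± 0.311 (SD, n = 2). Itgb1, the common beta subunit of matrix-binding integrins, was called lower, at 157 and 144 FPKM in ferret and 647 and 648 FPKM in mouse. Dmd, which encodes dystrophin, had 1.88 and 1.83 FPKM in ferret and 49.1 and 49.2 in mouse (log2 difference -4.13), and its relative Utrn, which encodes utrophin, had 39.5 and 39.2 FPKM in ferret and 15.4 and 14.9 in mouse (log2 difference 1.32). The other genes called lower, Dag1 and Dtna, which encode parts of the dystrophin complex, were under the limit in every other scaling (-0.95 and -0.87 by the mean of the library sums), while Itgb1 and Dmd kept their calls. Ywhaz, Flna and Vcl were present at over 60 FPKM in both species, and the log2 differences of these 3 lay between -0.85 and 0.36.

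**Figure D4:**
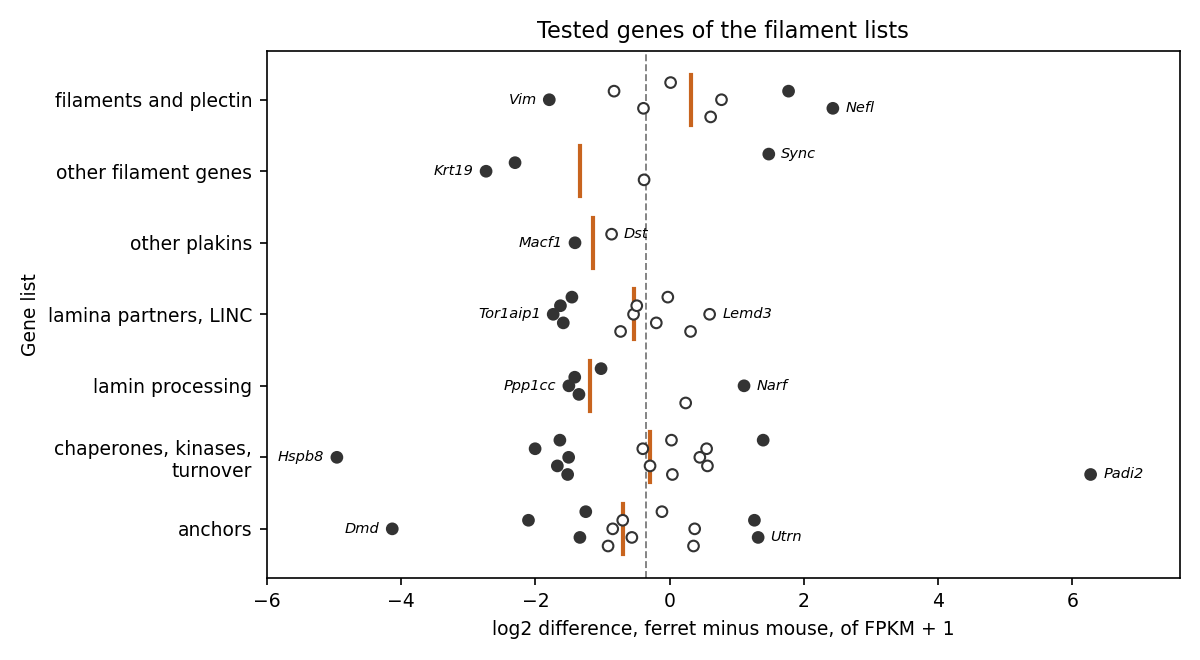
Log2 difference (ferret minus mouse, FPKM as deposited) of every tested gene of the filament set and 6 related lists. Filled points were called, orange bars are list medians and the dashed line is the median of all tested genes, -0.35. Padi2 stands far to the right, and Hspb8 and Dmd stand far to the left.

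Cell type markers were read beside these results. Of 10 astrocyte markers other than Gfap, 1 was called higher (S100b) and 7 lower in ferret, beside 13.1% and 30.1% of all tested genes. Under each of the other scalings 2 were called higher, S100b and Aldoc, and 5 lower. The sum of the 10 was 2240 and 2312 FPKM in ferret and 2349 and 2550 in mouse. Slc1a2, a glutamate transporter of astrocytes, was at 0.133 and 0.178 FPKM in ferret and entered through mouse alone. All 14 microglial markers tested were called lower in ferret, beside 30.1% of all tested genes. Their sums were 7.57 and 7.18 FPKM in ferret and 858 and 831 FPKM in mouse, and Cx3cr1 was listed at 0 in both ferret libraries. Of these 14, 12 passed the filter through their mouse level alone, so their direction was built into their entry. Of 9 meningeal fibroblast markers tested, 8 were called lower, beside 30.1% of all tested genes, and 4 of the 9 entered through mouse alone. The fibroblast sums were 125 and 111 FPKM in ferret and 1572 and 1551 FPKM in mouse. Fibroblasts, microglia and mural cells all express Vim and Lmna. Most of the tested markers of these cells were lower in ferret, as Vim was, beside 56.2% of all tested genes at the adjusted p alone. For 12 of the 14 microglial and 4 of the 9 fibroblast markers this direction was built into their entry. The mural marker Kcnj8 (log2 difference 3.62) and the fibroblast marker Pdgfra (0.77) went the other way, and Pdgfra was called higher under each of the 3 other scalings. Pdgfra is counted among the oligodendrocyte lineage markers below as well. The part of these cells in the higher mouse level of Vim was not tested. Markers of neural progenitors, which express Nes, summed to 292 and 264 FPKM in ferret and to 1319 and 1365 FPKM in mouse over 4 genes. Fabp7 made up most of these sums. Fabp7 and Prom1, which entered through mouse alone, were called lower in ferret, beside 30.1% of all tested genes. Ptprz1 had 81.7 and 75.5 FPKM in ferret and 62.7 and 64.6 in mouse (log2 difference 0.30), and Pax6 had 19.7 and 17.8 in ferret and 14.4 and 18.3 in mouse (log2 difference 0.19). Of 8 oligodendrocyte lineage markers tested, 3 were called higher and 0 lower in ferret by limma, beside 13.1% and 30.1% of all tested genes. At the adjusted p alone 6 were higher and 2 lower, beside 32.4% and 56.2% of all tested genes. Of the 8, 2 entered through ferret alone. With library sums set to 1000000, 6 of the 8 were called higher, beside 2197 of all 10204 tested genes. By the mean of the library sums and after quantile normalization 5 were, beside 1954 and 2076 of all tested genes. The 9 with values in both species had sums of 169 and 188 FPKM against 69.0 FPKM in both mouse libraries. The 2 endothelial markers tested, Cdh5 and Tek, were listed at 0 in ferret and entered through mouse alone, so that lower was the only direction open to them. Over the 6 endothelial genes with values in both species, the sums were 0.569 and 0.445 FPKM in ferret and 25.2 and 25.7 in mouse. Of 3 ependymal markers tested 1, Rsph1, was called lower, beside 30.1% of all tested genes. Foxj1 had 22.0 and 21.3 FPKM in ferret and 41.8 and 44.0 in mouse, while Dnah5 had 2.07 and 1.94 FPKM in ferret and 0.649 and 0.645 in mouse (log2 difference 0.87) and was called higher under each of the 3 other scalings. Rsph1 entered through mouse alone and Dnah5 through ferret alone, so the directions of both were built into their entry.

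**Figure D5:**
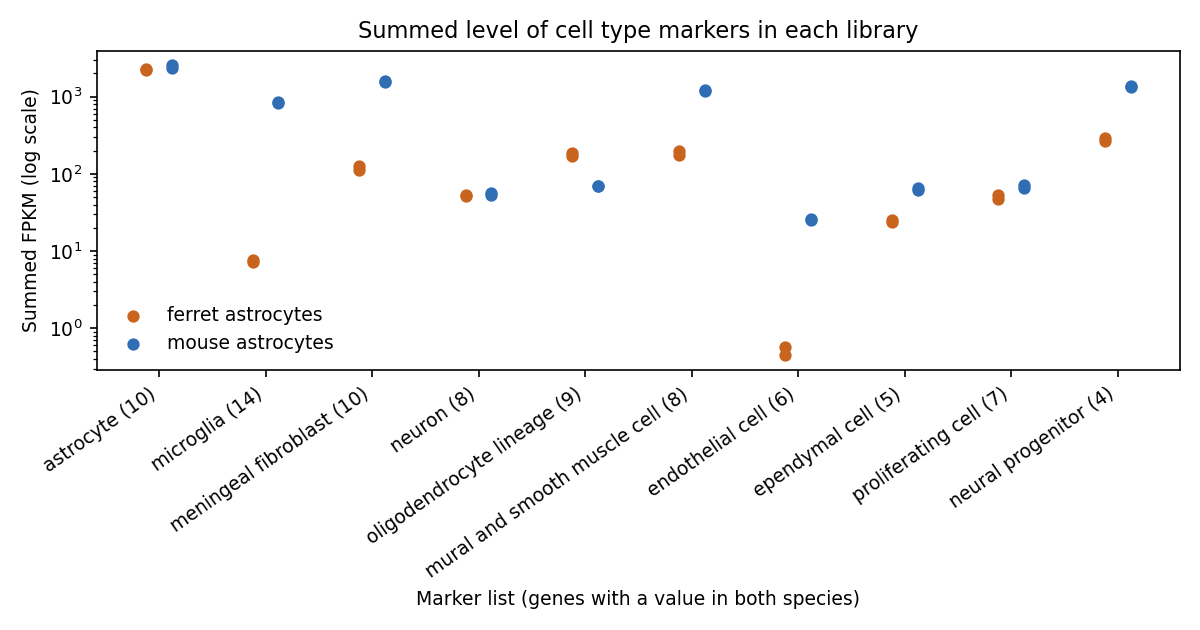
Summed FPKM of cell type markers in each library (points, log scale), ferret in orange and mouse in blue, with the number of genes summed in brackets. Microglial sums are 7.57 and 7.18 FPKM in ferret and 858 and 831 in mouse, and the neuronal sums of the species lie close together.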

How the data were processed

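RNA of 4 libraries (2 ferret, 2 mouse) was sequenced as paired-end, stranded, polyA-selected libraries. Per the submitters' processing notes and the paper, the authors aligned reads with STAR (2.7.0f) to MusPutFur1.0 or GRCm38 and deposited 1 FPKM per gene and library from Cufflinks (2.2.1). Symbols were matched without regard to case. For a symbol with several values the highest mean was used, and each of the 10 genes had 1 value. limma 3.58.1 (R 4.3.3) with an intensity trend was fitted to log2(FPKM + 1) of 10204 genes, with Benjamini-Hochberg adjustment over all of them, and was tested on simulated data. Python 3.11.15 and pandas 2.3.3 were used for joins. FPKM holds no counts, so no counting interval is given. The genes, lists and tests were chosen with earlier results of these data known. Named genes were all 10 genes and, from each other list, the 3 with the highest mean FPKM, the called genes with the most positive and most negative difference, plus the 3 nearest to Gfap and to Vim. Other names were chosen after their values were seen, and of the marker lists only some were named. The set of 6 filament genes planned for shares became 5, and a ratio of Synm to Vim was left out, since ferret Synm was not analysed here. Mouse coordinates and transcripts are from GENCODE M21 (GRCm38), a release other than that of the authors. No protein or ferret sequence was used, and some items are not reported here. Replicate numbers are shared by the species in the labels only.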

Additional observations from a re-analysis of the deposited data

How the results depend on the processing

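The alternatives tried were no filter, a pseudocount of 0.1, 3 other scalings over the shared symbols, and the replicate number as a block. Other treatments of repeated symbols were tried too, and each library was left out in turn. As deposited, 1336 genes were called higher in ferret, and there were 2197 when library sums were set to 1000000 and 2076 after quantile normalization, while the genes called lower went from 3069 to 2536 and 2090. By the mean of the library sums they were 1954 and 2215, so the share of calls that were higher moved with scaling. Vim fell to -0.96 after quantile normalization, under the limit of 1. Lmnb1 rose past it to 1.05 with a sum of 1000000 and to 1.02 after quantile normalization, and Lmnb2 to 1.24 with a sum of 1000000, 1.11 with the mean of the library sums and 1.21 after quantile normalization. With a library left out, Gfap ranged from -0.042 to 0.072, without a call, being below 0 without ferret replicate 2 (-0.0048) or without mouse replicate 1 (-0.042). No other library left out changed a call or a direction among the 8 tested genes, the ratios and the Gfap share. The numbers in the labels did not pair the libraries (correlation of deviations over genes 0.0099), and with the replicate block 1342 genes were called higher and 3072 lower and no member's call changed. For Des, only the fit without a filter gives a value. Only FPKM was used here, without read counts, which limits what can be said of Des, Nefl in mouse and Krt19 in ferret.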

Other observations

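Partners of the lamina for which only mouse values were analysed here were well represented in the mouse libraries. Banf1, which encodes a small protein that binds DNA and emerin, had 60.6 and 65.3 FPKM. Tmpo, which encodes the LAP2 proteins of the inner nuclear membrane, had 21.0 and 21.1 FPKM. Nup153, a component of the nuclear pore basket, had 19.4 and 21.5 FPKM. Tor1a, which encodes the torsin of the nuclear envelope, had 18.5 and 16.5 FPKM, and Fntb, the other farnesyltransferase subunit, had 8.61 and 8.53 FPKM.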
